A study of Mus musculus with 16 samples.

Results

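Of the 58245 lncRNA transcripts measured in mouse skeletal muscle, 50877 carried identifiers of NONCODE, a catalog of noncoding RNAs. The 9015 lncRNAs described here were those NONCODE transcripts that lay wholly inside the interval of a transcript of the mRNA table. They were chosen by their counts as well: the mean count over 16 mice was 10 or more, and the 100 lncRNA rows of highest mean count were left out. Of 13368 NONCODE lncRNAs within the count limits, 4353 lay outside every mRNA span and served as the comparison. The 9015 lncRNAs lay in 4312 host genes, which are the genes around them, and 372 lay inside the spans of 2 or more genes, of which the one of shortest span was taken as the host.

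The muscles came from male C57BL/6 mice (C57BL/6J in the study's methods) bought at 6 weeks of age, with 4 mice in each of 4 groups and 1 library per mouse. Control mice received a normal diet, and HFD mice a high-fat diet with 60% fat, given for 8 weeks before any treatment. The HFD+RSV and HFD+MET groups were fed the same diet and were then given resveratrol, a plant polyphenol, or metformin, an antidiabetic drug, for 6 weeks. The labels name neither the muscle nor the dose, and nothing says whether the HFD mice were given a vehicle. The study's methods do state a dose of resveratrol, given into the stomach, and a control diet lower in fat. They also state that some mice of each group were injected with insulin shortly before tissue was taken. Whether the sequenced mice were among those injected is not said. All 4 HFD mice carry a leading label number that no mouse of another group carries, so the diet and whatever that number marks cannot be told apart. The extraction text of the labels speaks of retinas, and the summed level of the retina genes was 0.505 to 2.04 CPM (counts scaled to library size), against 165100 to 316500 CPM for 7 skeletal muscle genes. Total counts per mouse were 20281801 to 34021101 over both tables.

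A long noncoding RNA inside a coding gene can be a transcript with its own promoter, an alternative end or start of the host, or a stretch of the host's unspliced precursor that a catalog lists as a separate transcript. Libraries depleted of ribosomal RNA, rather than selected for poly(A), keep such precursor. Introns are transcribed together with the exons of their gene and are then removed, so reads from introns follow the making of a transcript, and reads from exons follow the mature mRNA. The lncRNA table gives no strand, and whether the libraries kept strand is not given in the sources used here, so sense and antisense RNA at a locus cannot be told apart.

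Most of the lncRNAs were single stretches of intron. A single exon made up 88.2% of them, and the median length was 2178 bases. Against the coding transcripts of the host in GENCODE M21, 5175 lay in introns only, 1256 lay within exons, 1283 crossed the edge of an exon, and 1062 were spliced. The remaining 239 lay in hosts without a coding annotation. Of the 1256 within exons, 1139 lay in the 3′ UTR, the noncoding end of an mRNA. The hosts were unequally filled: 1845 held 2 or more of the lncRNAs, 349 held 5 or more, and 68 held 10 or more. Zbtb20, which encodes a zinc finger repressor, held 45, Rora, which encodes a nuclear receptor, held 29, Naaladl2 and Pde4d, the latter encoding a phosphodiesterase that degrades cAMP, held 26 each, and Foxp1, which encodes a forkhead transcription factor, held 25. At the lower limit, lncRNAs in Cavin2, B3galt1, and Rngtt had a mean count of exactly 10, and those in Sema3g, Ano5, and Kirrel3 were left out at 9.94. At the upper limit, lncRNAs in Vezf1, Ddi2, and Acadsb were kept at 1675 to 1694, and those in Klhl33, Maf, and Lpin1 were left out at 1728 to 1796.

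The sequences of 4 lncRNAs at which the lncRNA and its host differed are shown on the strand of the host, where the annotation gives them. Shown is the edge of each lncRNA that comes first on that strand. Since the strand of the lncRNAs is not known, this edge can be the start or the end. Capitals mark the bases inside the interval of the lncRNA and lower case marks the host sequence before it. NONMMUT069928.2 has this edge within an intron of Tcf12, which encodes a basic helix-loop-helix transcription factor (chr9:72108525-72108724, minus strand). NONMMUT038235.2 has it within an intron of Itgav, which encodes integrin alpha V (chr2:83738740-83738939, plus strand). NONMMUT153460.1 is spliced, and the stretch shown overlaps coding sequence of Hemk1, which encodes a protein methyltransferase (chr9:107336048-107336247, minus strand). Which of its capital bases belong to exons of the lncRNA is not known. These 3 were read from GENCODE M21 transcripts of GRCm38. NONMMUT069792.2 lies in an intron of Rora. Its first base on the plus strand is the RefSeq start site of the noncoding gene 9530091C08Rik (chr9:68765096-68765395, plus strand, RefSeq, GRCm38.p6).
NONMMUT069928.2: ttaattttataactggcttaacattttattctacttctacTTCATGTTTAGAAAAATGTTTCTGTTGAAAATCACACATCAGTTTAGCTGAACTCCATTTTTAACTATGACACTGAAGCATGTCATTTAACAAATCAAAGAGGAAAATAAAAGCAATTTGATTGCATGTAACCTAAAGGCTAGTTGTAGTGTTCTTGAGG
NONMMUT038235.2: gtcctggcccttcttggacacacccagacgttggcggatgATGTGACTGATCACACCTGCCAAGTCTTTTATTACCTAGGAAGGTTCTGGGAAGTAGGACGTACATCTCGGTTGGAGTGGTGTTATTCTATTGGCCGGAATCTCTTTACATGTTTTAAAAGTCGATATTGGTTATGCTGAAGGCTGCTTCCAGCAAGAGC
NONMMUT153460.1: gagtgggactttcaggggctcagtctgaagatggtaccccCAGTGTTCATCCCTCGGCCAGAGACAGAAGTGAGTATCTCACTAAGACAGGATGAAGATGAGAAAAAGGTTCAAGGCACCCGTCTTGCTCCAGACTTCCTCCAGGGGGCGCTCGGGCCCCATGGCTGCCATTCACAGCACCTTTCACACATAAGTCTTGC
NONMMUT069792.2: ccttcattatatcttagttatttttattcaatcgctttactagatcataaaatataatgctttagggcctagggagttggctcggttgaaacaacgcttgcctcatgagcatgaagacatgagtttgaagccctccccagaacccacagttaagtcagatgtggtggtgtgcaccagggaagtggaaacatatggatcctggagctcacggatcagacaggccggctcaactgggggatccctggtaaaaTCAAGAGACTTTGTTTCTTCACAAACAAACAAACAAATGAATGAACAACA

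Per length, most of the lncRNAs were far below their hosts. FPKM (fragments per kilobase of transcript, scaled to library size) was compared as the mean over the 16 mice. The median lncRNA had 0.783 FPKM. Intron lncRNAs had a median of 9.66% of the FPKM of the host, with an interquartile range of 5.27% to 17.6%. Exon lncRNAs had a median of 42.2%, and those at exon edges and spliced ones had 7.77% and 8.60%. Along the host from start to end, the median of the intron lncRNAs was, over 5 equal parts, 11.2%, 10.04%, 9.73%, 8.70%, and 7.98% of the host. Only 106 of 5175 intron lncRNAs were above their host, against 271 of 1256 exon lncRNAs. The 239 in hosts without a coding annotation went the other way. Their median was 324.5% of the host, and 192 were above it, where the median FPKM of the host was 0.187.

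The first comparison asked which of the lncRNAs changed on the high-fat diet and whether the host gene moved with them. An lncRNA was called at a Benjamini-Hochberg adjusted P below 0.05 over the whole lncRNA table and an absolute log2FC above 1, from edgeR's quasi-likelihood test. Of 8874 tested lncRNAs, 65 were higher in the HFD mice than in the control mice and 60 were lower. That is 1.41%, against 1.71% of the 16503 lncRNAs tested in the whole table (1.07% higher and 0.648% lower). At an unadjusted P below 0.05 with the same limit on log2FC, 385 passed, where 5.9% of the table did. Of NONCODE lncRNAs outside coding spans, 70 were higher and 23 were lower among 4278, or 2.17%. The median log2FC was -0.05 for the lncRNAs and -0.01 for the whole table. For 121 of the 125, the 4 HFD values and the 4 control values did not overlap, and 1108 of all those tested (12.5%) did not overlap. Leaving out 1 mouse gave 47 to 163 calls, the fewest without control mouse 2, and 57, 64, 66, and 75 without HFD mouse 3, control mouse 3, HFD mouse 2, and HFD mouse 1. The called lncRNAs lay in 93 hosts. Of these hosts, 18 held 2 or more of them, and none held called lncRNAs in both directions. Intron lncRNAs made up 41 of the 65 that were higher and 36 of the 60 that were lower. Of the 9 lncRNAs called in hosts without a coding annotation, 8 were higher, and 5 of these lay next to Jph1, as described below.

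For most called lncRNAs, the host gene was not called. Summed over its transcripts, the host was called in the same direction for 25 of the 125, of which 19 were lower and 6 were higher. In no case was it called in the opposite direction. It was not called for 91, and for 9 it was too low to be tested. Over all 8874 tested lncRNAs, 156 had a called host, and 138 of these had a log2FC of the same sign as the host. Of 4158 tested host genes, 18 were higher and 65 were lower, where 2.97% of all genes were called (0.609% higher and 2.36% lower). At an unadjusted P with the limit on log2FC kept, 134 host genes passed, against 5.04% of all genes. Over 5120 intron lncRNAs with a tested host, the log2FC of the lncRNA and of the host had a Pearson correlation of 0.49. It was 0.391 at exon edges, 0.362 for spliced lncRNAs, and 0.256 within exons. These correlations are across transcripts of the same libraries and are a description. In 529 hosts with 2694 intron lncRNAs, the SD of log2FC was 0.36 between hosts and 0.33 among lncRNAs of a host, so that 54.6% of the variance lay between hosts.

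A test of the difference itself, an interaction between group and transcript kind in edgeR, found 61 lncRNAs that changed differently from their host at an adjusted P below 0.05. This was out of 8638 tested, and 0.629% of all lncRNA rows with a host passed (0.387% above and 0.242% below). The lncRNA was above the host for 37 and below it for 24. At an unadjusted P, 1425 passed, where 15.9% of the rows did. They lay in 43 hosts, and 40 of them were intron lncRNAs, 10 lay at exon edges, 8 were spliced, and 3 lay within exons. For 36 of the 61, the log2FC of the lncRNA and of the host had opposite signs. In all 61, the ratios of lncRNA to host did not overlap between the groups, where those of 962 of the 8638 (11.1%) did not. With a single normalization factor per mouse from both tables, 100 lncRNAs differed, 25 above and 75 below, and the median difference over all rows moved from -0.02 to -0.12. Without HFD mouse 2, 12 differed, and leaving out any other control or HFD mouse but control mouse 1 gave 13 to 40.

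**Figure D1:**
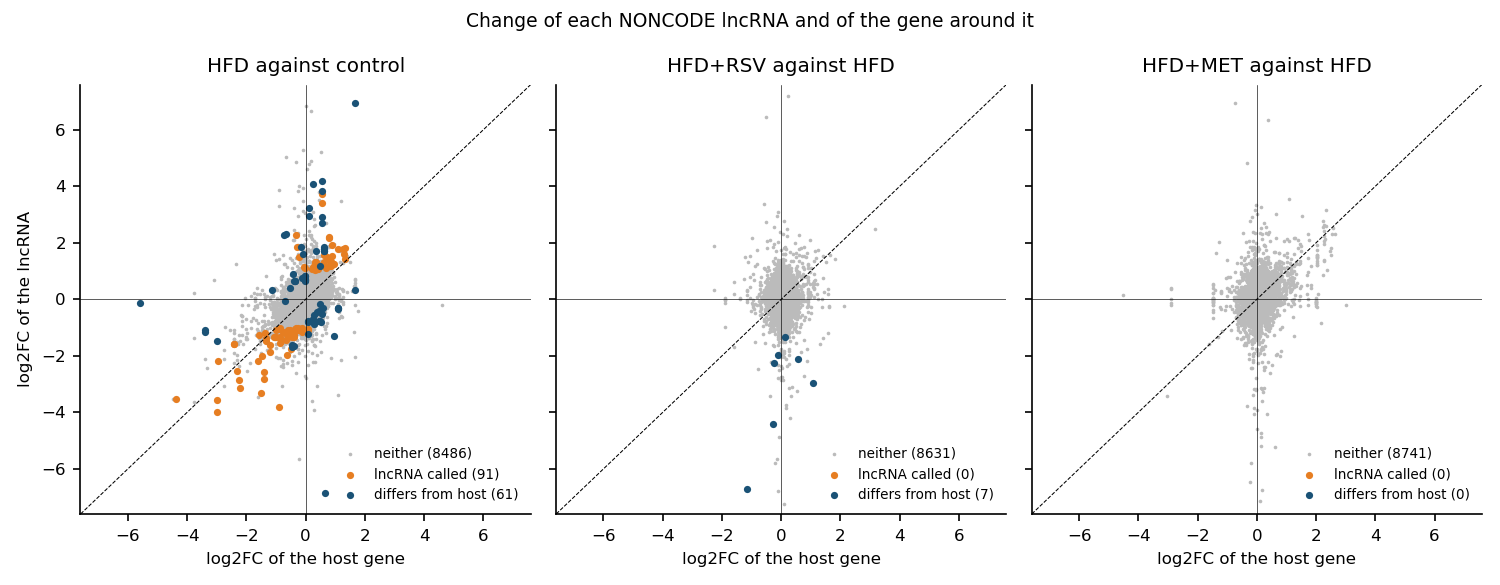
Log2FC of each lncRNA (vertical axis) against log2FC of the host gene around it (horizontal axis) in the 3 comparisons. Each point is an lncRNA with a tested host, orange points were called without differing from the host, blue points differed from the host, and the dashed line marks equal change. In HFD against control, 61 points differ from the host, and in HFD+RSV against HFD, 7 do, all below the line.

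The largest rise among the called lncRNAs was that of NONMMUT018494.2, which lies in the 3′ UTR of Mef2c, a gene for a transcription factor of muscle (chr13:83664245-83666339). Its FPKM was 0.132, 0.112, 0.0924, and 0.137 in the control mice and 5.17, 19.7, 16.6, and 8.69 in the HFD mice. All HFD mice were above all control mice. Its log2FC was 6.96 ± 0.45 (SE, n = 4 mice per group, adjusted P = 9.1e-05), against 1.65 ± 0.28 for Mef2c (adjusted P = 0.0082). The difference from the host was 5.14 ± 0.37 (adjusted P = 0.00011, or 0.0877 in the fit to all 16 mice). None of the other 5 tested lncRNAs of Mef2c was called. NONMMUT018495.2 overlaps it at the end of the gene and had a log2FC of 0.58 ± 0.20 (adjusted P = 0.135). NONMMUT018492.2, in an intron near the end of the gene, had 0.33 ± 0.24 (adjusted P = 0.5004) and fell short of the host by 1.38 on the log2 scale (adjusted P = 0.0395). Reads in a 3′ UTR can be assigned to the lncRNA or to the mRNA, and the part of this in the values was not tested.

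Hemk1, Igf1, and Esrrg each held an lncRNA that was higher while the host was not. NONMMUT153460.1 in Hemk1 had FPKM of 0.0377, 0.144, 0.0317, and 0.0781 in the control mice and of 0.426, 0.856, 1.64, and 1.70 in the HFD mice. The groups did not overlap, its log2FC was 4.07 ± 0.60 (adjusted P = 0.0097), and that of Hemk1 was 0.24 ± 0.13 (adjusted P = 0.220). The difference of 3.79 ± 0.60 (adjusted P = 0.021) was lost without control mouse 3 or 4 or without HFD mouse 2 or 3. NONMMUT006717.2 crosses an exon edge near the start of Igf1, which encodes insulin-like growth factor 1 (chr10:87859266-87862789). It had FPKM of 0.183, 0.0917, 0.242, and 0.108 in the control mice and of 0.355, 0.482, 0.764, and 0.973 in the HFD mice. It rose by a log2FC of 2.28 ± 0.43 (adjusted P = 0.018), whereas Igf1 fell by 0.74 on the log2 scale (adjusted P = 0.019), and the difference was 3.00 ± 0.41 (adjusted P = 0.0094). NONMMUT004274.2 is spliced and lies in Esrrg, which encodes an orphan nuclear receptor. Its FPKM was 0.0282 to 0.234 in the control mice and 0.300 to 0.821 in the HFD mice, without overlap. Its log2FC was 2.30 ± 0.52 (adjusted P = 0.036), against -0.68 for Esrrg (adjusted P = 0.444), and the difference was 2.97 ± 0.38 (adjusted P = 0.0068).

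Intron lncRNAs of Tcf12, Cradd, and Kcnma1 were higher as well, and their hosts were not called. These and the Esrrg lncRNA were picked for description after their values were seen. NONMMUT069928.2 in Tcf12 had FPKM of 0.688, 0.681, 1.16, and 0.637 in the control mice and of 2.29, 2.32, 2.82, and 2.16 in the HFD mice. All HFD values were above the control values, with a log2FC of 1.85 ± 0.33 (adjusted P = 0.015) against -0.17 for Tcf12 (adjusted P = 0.349). NONMMUT006942.2 in Cradd, which encodes an adaptor of apoptosis signalling, rose by 1.61 ± 0.23 (adjusted P = 0.0087), and Cradd was at -0.09 (adjusted P = 0.811). NONMMUT019953.2 in Kcnma1, which encodes a calcium-activated potassium channel, rose by 1.70 ± 0.28 (adjusted P = 0.013), and Kcnma1 was at 0.37 (adjusted P = 0.352).

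In the other direction, an lncRNA at the end of Gsr was almost absent from the HFD mice. Gsr encodes glutathione reductase, which regenerates reduced glutathione. NONMMUT065156.2 (chr8:33697247-33698161) had counts of 230, 379, 326, and 253 in the control mice and of 2, 3, 2, and 2 in the HFD mice. In the HFD+RSV mice the counts were 298, 268, 276, and 2, and in the HFD+MET mice they were 233, 346, 351, and 367. So all HFD mice and HFD+RSV mouse 4 were near 0 and the other 11 mice were at 230 or more. Relative to library size, the summed count was 120 times as high in the control group as in the HFD group (95% interval 62.9 to 263, counting error only). The adjusted P was 0.015, and the call was lost without HFD mouse 3. Gsr itself had counts of 329, 556, 531, and 424 in the control mice and of 792, 721, 653, and 708 in the HFD mice, a log2FC of 0.66 ± 0.19 (adjusted P = 0.045). HFD+RSV mouse 4, with 723 counts of Gsr, was above the 347 to 464 counts of the other HFD+RSV mice, so Gsr was high in the mice in which the lncRNA was near 0. The lncRNA overlaps exons of Gsr, and how reads were divided between them was not tested. The difference from the host (adjusted P = 0.046) was lost in 15 of the alternatives, among them both limma fits.

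NONMMUT071570.2 was high where its host of shortest span was near 0. That host is CAAA01194877.1, a gene name without a coding annotation, and the lncRNA (chr9:13308214-13311034) also lies inside Maml2, which encodes a coactivator of Notch signalling. The lncRNA had counts of 27, 217, 157, and 129 in the control mice, 26, 36, 25, and 23 in the HFD mice, 149, 128, 117, and 28 in the HFD+RSV mice, and 119, 30, 227, and 48 in the HFD+MET mice. CAAA01194877.1 had 1 count in each of the 8 mice in which the lncRNA was above 100, and 17 to 94 counts in the other 8. So the lncRNA was high in 3 of 4 control mice and in none of the HFD mice, and its log2FC of -2.06 ± 0.53 did not pass (adjusted P = 0.063). Maml2 was at -0.26 ± 0.13 (adjusted P = 0.209), and the lncRNA did not differ by the test from CAAA01194877.1 (adjusted P = 0.276) or from Maml2 (adjusted P = 0.191). NONMMUT044897.2 crosses an exon edge at the start of Cdc14a, which encodes a cell cycle phosphatase (chr3:116419709-116423941). It had FPKM of 1.38, 1.66, 2.04, and 1.43 in the control mice and of 2.29, 4.17, 4.91, and 4.13 in the HFD mice, all above the control mice. It rose by 1.50 ± 0.23 (adjusted P = 0.010, or 0.0571 in the fit to all 16 mice), against 0.71 ± 0.14 for Cdc14a (adjusted P = 0.015), and the difference did not pass (adjusted P = 0.102).

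Elsewhere the host rose and the lncRNA did not. NONMMUT003828.2 is spliced and lies in Casq1, which encodes the calcium-binding protein of the sarcoplasmic reticulum. It had FPKM of 1.03, 0.989, 0.506, and 0.713 in the control mice and of 0.292, 0.153, 0.402, and 0.267 in the HFD mice, and the groups did not overlap. Its log2FC was -1.31 ± 0.35 (adjusted P = 0.068), whereas Casq1 rose by 0.96 ± 0.19 (adjusted P = 0.014), and the difference was -2.31 ± 0.30 (adjusted P = 0.007). Mib1, which encodes a ubiquitin ligase of Notch signalling, rose by 1.09 ± 0.23 (adjusted P = 0.016), and its lncRNAs were divided. The spliced NONMMUT031468.2 was called with it, at a log2FC of 1.77 ± 0.39 (adjusted P = 0.038), and the difference from the host did not pass (adjusted P = 0.405). NONMMUT031461.2 and NONMMUT031459.2 were at -0.36 ± 0.17 and -0.31 ± 0.23, both below the host (adjusted P = 0.021 and 0.047), and the latter call was lost in 13 of the alternatives. NONMMUT038235.2 in Itgav was at -0.31 ± 0.26, and Itgav at 1.08 (adjusted P = 0.035), with a difference of -1.42 ± 0.25 (adjusted P = 0.031).

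**Figure D2:**
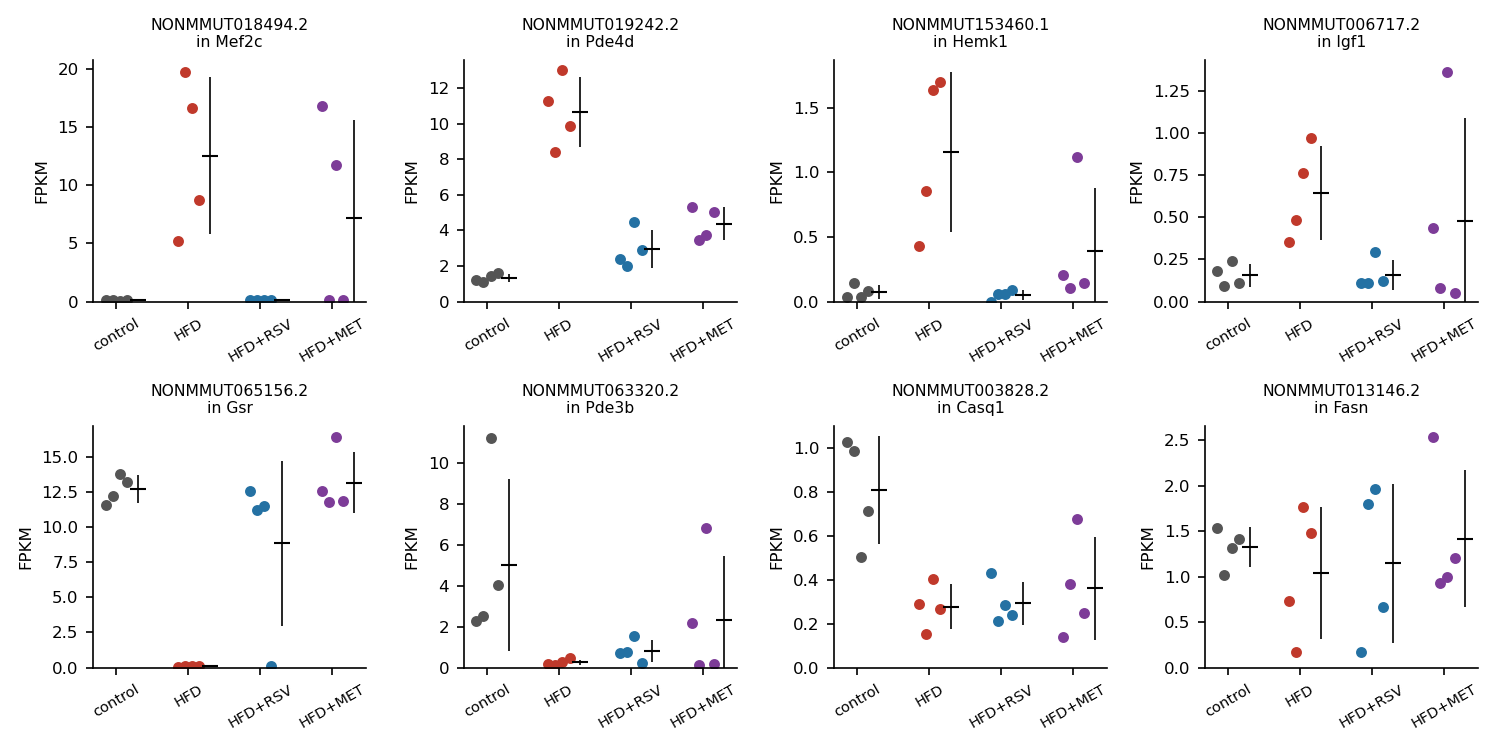
FPKM of 8 lncRNAs in each mouse (points), with the mean and SD of each group of 4 mice (bars beside the points) on linear axes. NONMMUT018494.2 and NONMMUT065156.2 separate the HFD mice from all control mice in opposite directions, and NONMMUT013146.2 in Fasn overlaps between all groups.

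In several long hosts, the lncRNAs of a stretch moved together and those of the next stretch did not. These hosts were those with most lncRNAs or with 2 or more called, and the stretches were drawn at start sites of coding transcripts after the values were seen, so the following is a description without a test. Some neighbours overlap each other and share reads. In Rora, 25 lncRNAs lie between the first start and an internal start of a coding transcript (chr9:69289682), 635.9 kb into the gene. Of these, 24 had a positive log2FC in HFD against control, with a median of 0.68, and 16 had an adjusted P below 0.05. The 4 lncRNAs after the internal start had a log2FC of 0.00 to 0.05. Summed over the 25, the level was 1010, 778, 1071, and 877 CPM in the control mice and 1517, 1250, 1607, and 1321 CPM in the HFD mice. The groups did not overlap there, whereas the 4 later lncRNAs summed to 179.8 to 214.8 CPM in the control mice and to 171.1 to 217.4 CPM in the HFD mice. Rora as a whole was at -0.03 ± 0.11 (adjusted P = 0.875), and 6 of the 25 lncRNAs differed from it. The most abundant of these, NONMMUT069792.2, had FPKM of 2.78, 2.53, 3.11, and 2.66 in the control mice and of 4.32, 3.07, 4.34, and 3.41 in the HFD mice. HFD mouse 2 lay just below control mouse 3, and the other HFD mice were above all control mice (log2FC 0.69 ± 0.12, adjusted P = 0.015).

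Pde4d showed a steeper profile. Its 8 lncRNAs before an internal start (1182.8 kb into the gene) had log2FC values that went from 0.39 at the first to 3.24 at the last, with a median of 1.52. The 18 lncRNAs after it had a median of 0.10. Of the 8, 2 had an adjusted P below 0.05, and none of the 18 did. NONMMUT019242.2, the last before the start (chr13:109583992-109584445), had FPKM of 1.22, 1.10, 1.45, and 1.58 in the control mice and of 11.3, 8.42, 13.0, and 9.89 in the HFD mice. Its neighbour NONMMUT019241.2 had FPKM of 2.15, 0.921, 1.56, and 2.44 and of 14.4, 9.37, 14.9, and 8.44. In both, all HFD mice were above all control mice, and both differed from the host (3.13 ± 0.26, adjusted P = 0.00025, and 2.91 ± 0.44, adjusted P = 0.021). Pde4d summed over its transcripts was at 0.11 ± 0.09 (adjusted P = 0.447). A split at an earlier coding start, 1131.5 kb into the gene, puts NONMMUT019242.2 after it. The medians are then 1.35 before and 0.11 after. The 8 lncRNAs summed to 185.2 CPM in HFD+MET mouse 3 and to 1192 CPM or more in the other HFD+MET mice.

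Zbtb20 was split with smaller values. The median log2FC was -0.22 for the 27 lncRNAs before an internal start 360 kb into the gene and 0.23 for the 18 after it, and Zbtb20 was at -0.10 ± 0.10 (adjusted P = 0.584). None of the 27 and 2 of the 18 had an adjusted P below 0.05, and none differed from Zbtb20. On both sides of the start, the summed levels of the control and HFD mice overlapped. In Svil, which encodes the actin-binding protein supervillin, the 3 lncRNAs at the beginning of the gene fell by 1.07 to 1.22 on the log2 scale, all called. The 3 lncRNAs after the internal start had log2FC values of -0.33 to 0.40, and Svil was at 0.07 ± 0.12 (adjusted P = 0.751).

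Jph1 and Adamtsl1 held the most called lncRNAs. Jph1 encodes junctophilin 1, which holds the sarcoplasmic reticulum to the cell membrane at the sites of calcium release. All 9 of its lncRNAs had a positive log2FC, and 7 of these were called, all within the last introns 110.9 to 129.0 kb from the start. Summed over the 9, the level was 151, 105, 115, and 170 CPM in the control mice and 356, 338, 320, and 255 CPM in the HFD mice, without overlap. NONMMUT077386.1 had the largest log2FC of the 9, 1.84 ± 0.28 (adjusted P = 0.010). Jph1 rose less, by 0.62 ± 0.16 (adjusted P = 0.034), and 5 of the lncRNAs were above it by the test of the difference. Another 7 lncRNAs lie beyond the 3′ end of Jph1 (chr1:16935108-16964164), and 5 of them were called. They lie within the noncoding antisense gene Gm28376, which overlaps Jph1 but does not reach its start. Summed, they were at 91.8 to 187.9 CPM in the control mice and at 292.1 to 386.8 CPM in the HFD mice. Gm28376 had too few counts in the mRNA table to be tested.

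Adamtsl1 encodes a secreted protein of the extracellular matrix. All 7 of its lncRNAs were higher in sign, and 6 were called, with log2FC values of 2.69 to 4.19. The 7 summed to 11.0, 7.83, 5.43, and 6.56 CPM in the control mice and to 70.4, 26.8, 69.4, and 44.4 CPM in the HFD mice, so the groups did not overlap. NONMMUT047957.2, the spliced member near the start, had a log2FC of 3.82 ± 0.40 (adjusted P = 0.0023), and the difference from Adamtsl1 was 3.21 ± 0.33 (adjusted P = 0.0015). The Adamtsl1 gene was at 0.56 ± 0.24 (adjusted P = 0.156). The same lncRNA also lies inside a transcript of Sh3gl2, which encodes the endocytic protein endophilin A1 and was called in the same direction. Sh3gl2 had counts of 8, 14, 3, and 3 in the control mice and of 66, 20, 63, and 41 in the HFD mice, a log2FC of 2.80 ± 0.55 (adjusted P = 0.0136). Against Sh3gl2, the difference of the lncRNA was 1.02 and did not pass (adjusted P = 0.392), so the departure from the host rests on the choice of Adamtsl1. The other 6 lncRNAs lie in no gene but Adamtsl1. NONMMUT115212.1 had at most 3 counts in any control mouse, and its summed count relative to library size was 19.8 times as high in the HFD group (interval 8.19 to 62.6). In the HFD+MET group the 7 lncRNAs summed to 96.4 CPM in mouse 4 and to 7.38 to 14.0 CPM in the other mice.

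**Figure D3:**
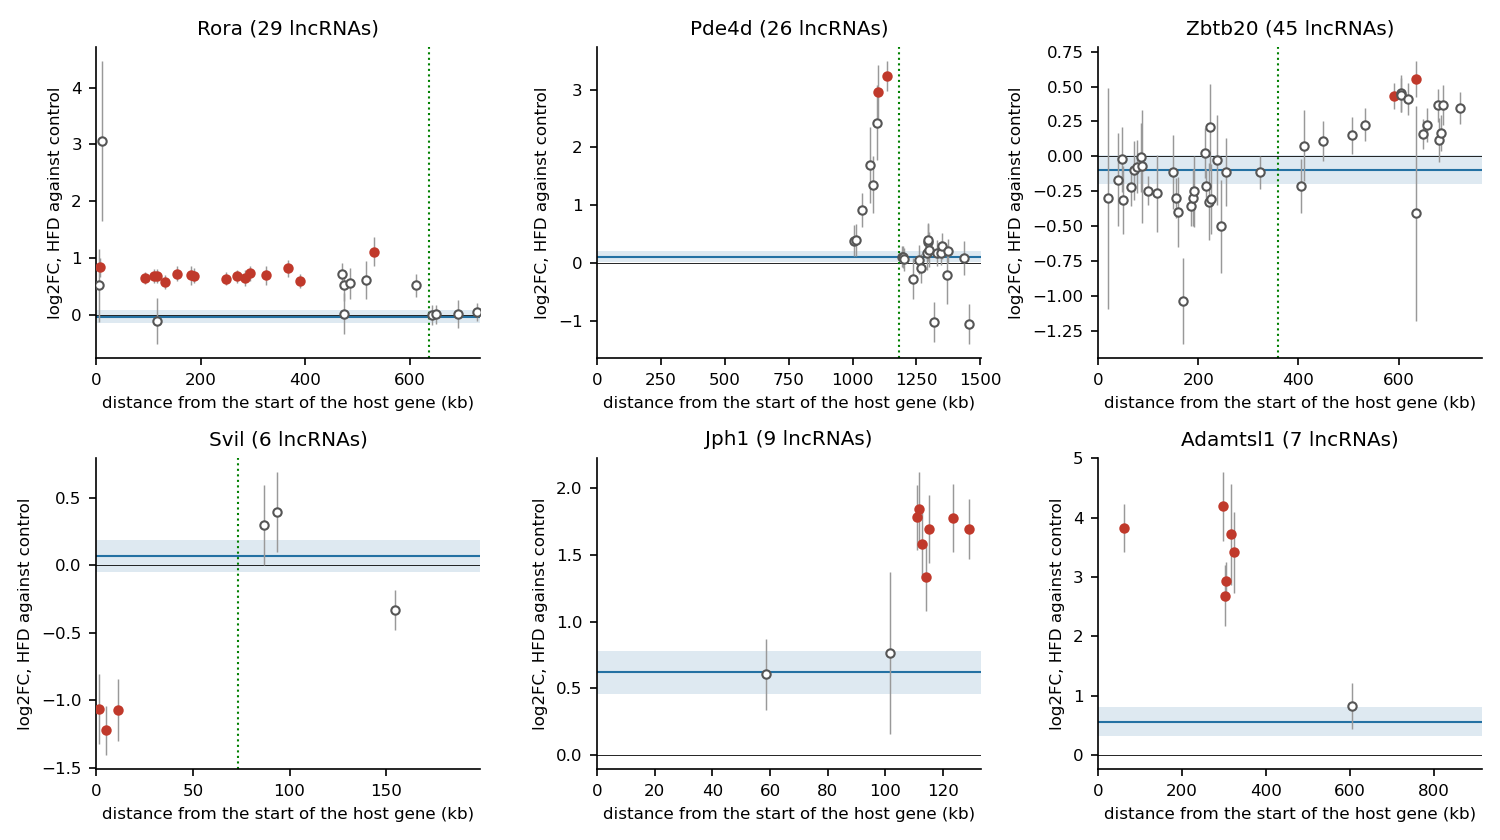
Log2FC in HFD against control (vertical axis, bars are SE) of every tested lncRNA of 6 hosts against its distance from the start of the host in kb. Filled red points have an adjusted P below 0.05, the blue line and band are the log2FC and SE of the host gene, and the dotted green line marks the internal start at which the lncRNAs were split. In Rora, the values drop from a median of 0.68 before the line to a median of 0.02 after it.

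By function of the host, 9 lists of genes were compared. Over all 8874 tested lncRNAs, 1.41% were called in HFD against control, against 1.71% of the whole lncRNA table. Among hosts of calcium release and excitation, 11 lncRNAs were higher and 1 was lower of 74 tested, with a median log2FC of 0.29. Of these, 7 lie in Jph1 and 2 in Pde4d, and the others lie in Kcnma1 and in Cacna2d1, which encodes a calcium channel subunit. The lower one lies in Itpr1, which encodes an inositol trisphosphate receptor. No host gene of this list was called. Among hosts for muscle transcription and chromatin regulators, 4 of 85 were higher, in Mef2c, Rora, Esrrg, and Hdac4, and none was lower. Here 8 were above the host, 6 of them in Rora, and 1 was below it. Of all lncRNA rows with a host, 0.387% were above it and 0.242% below. Among hosts of glycolysis and glycogen, 2 of 18 were higher, in Pgm2 and in Phka1, a regulatory subunit of phosphorylase kinase. Among sarcomere and cytoskeleton hosts, 1 of 54 was higher, NONMMUT016917.2 in Mylk4, a kinase of the myosin light chain kinase family. Its FPKM was 26.5, 10.3, 19.9, and 20.3 in the control mice and 52.4, 33.9, 43.6, and 42.3 in the HFD mice, with a log2FC of 1.38 ± 0.28 (adjusted P = 0.023) against 0.83 ± 0.19 for Mylk4. The antioxidant list had 1 lower of 10, the Gsr lncRNA. None of the 15 lncRNAs in hosts of ubiquitin ligases, autophagy, and atrophy and none of the 14 in hosts of AMPK, sirtuin, and energy sensing was called.

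In hosts of insulin signalling and glucose uptake, 2 of 38 were called, both lower and both in Tbc1d4. Tbc1d4 encodes AS160, a target of AKT that holds back the glucose transporter GLUT4. NONMMUT022029.2 had FPKM of 1.79, 2.66, 2.42, and 1.45 in the control mice and of 0.611, 0.474, 0.459, and 0.626 in the HFD mice. NONMMUT022028.2 had FPKM of 1.12, 2.07, 0.968, and 1.22 and of 0.471, 0.335, 0.324, and 0.344. In both, all HFD mice were below all control mice, with log2FC values of -1.69 ± 0.20 (adjusted P = 0.0037) and -1.63 ± 0.32 (adjusted P = 0.023). Tbc1d4 was at -0.45 ± 0.22 (adjusted P = 0.212), and both lncRNAs were below it by the test of the difference (adjusted P = 0.0093 and 0.043). The remaining lncRNA of Tbc1d4, NONMMUT022031.2 in an early intron, was at -0.998 ± 0.43 (adjusted P = 0.227).

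In lipid hosts, 4 of 14 tested lncRNAs were lower and none was higher. The median log2FC was -1.12, 4 of the 8 host genes were called lower, and 3 of the 14 lncRNAs were above their host by the test of the difference. The 4 lie in introns of Ppara and Pparg, which encode nuclear receptors of fatty acid oxidation and of adipocyte differentiation, and of Dgat2, which encodes an enzyme of triglyceride synthesis. NONMMUT024511.2 in Ppara had FPKM of 1.21, 3.00, 7.03, and 1.79 in the control mice and of 0.406, 0.273, 0.399, and 0.432 in the HFD mice, a log2FC of -2.82 ± 0.52 (adjusted P = 0.019). NONMMUT062890.2 in Dgat2 had FPKM of 0.966, 1.75, 4.47, and 2.28 and of 0.221, 0.306, 0.134, and 0.412, a log2FC of -2.85 ± 0.44 (adjusted P = 0.011) against -2.26 for Dgat2 (adjusted P = 0.012). NONMMUT058486.2 in Pparg had FPKM of 1.53, 3.27, 6.21, and 4.14 and of 0.603, 0.620, 0.765, and 0.774, a log2FC of -2.18 ± 0.38 (adjusted P = 0.015) against -1.62 for Pparg (adjusted P = 0.068). In each, the control mice were all above the HFD mice, and control mouse 3 was the highest. Outside the list, NONMMUT063320.2 in Pde3b, a phosphodiesterase that acts against lipolysis, had FPKM of 2.26, 2.54, 11.2, and 4.02 and of 0.170, 0.142, 0.273, and 0.444, with a log2FC of -4.00 ± 0.67 (adjusted P = 0.015) against -3.00 ± 0.83 for Pde3b. NONMMUT051718.2 in Kcnk3, which encodes a potassium channel, had FPKM of 0.929, 0.812, 2.31, and 0.285 and of 0, 0.0488, 0.0536, and 0.213, with a log2FC of -3.53 ± 0.79 (adjusted P = 0.037) against -4.39 for Kcnk3. In both, the groups did not overlap, and the Kcnk3 call was lost in 10 of the alternatives. The spliced NONMMUT063321.2 in Pde3b fell by 3.55 on the log2 scale (adjusted P = 0.026). NONMMUT071122.2 in Arpp21, which encodes a cAMP-regulated phosphoprotein, fell from 10 to 65 counts in the control mice to 0 to 4 counts in the HFD mice (adjusted P = 0.0495), a call lost in 12 of the alternatives.

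The lncRNAs of Fasn and Acaca, genes for fatty acid synthesis, stood apart. Fasn fell by 5.59 on the log2 scale (SE 0.73, adjusted P = 0.004), from 48.5 to 719 FPKM in the control mice to 4.37 to 7.84 FPKM in the HFD mice. NONMMUT013146.2 in its 3′ UTR had FPKM of 1.54, 1.02, 1.32, and 1.42 in the control mice and of 0.731, 0.166, 1.77, and 1.48 in the HFD mice, which overlap. Its log2FC was -0.14 ± 0.69 and the difference from Fasn was 4.78 ± 0.90 (adjusted P = 0.0499), a call lost in 16 of the alternatives. The Acaca intron lncRNAs NONMMUT011170.2 and NONMMUT011168.2 were at -1.08 ± 0.32 and -1.15 ± 0.34, against -3.38 for Acaca (adjusted P = 0.0033), and differed from it by 2.21 ± 0.26 and 1.99 ± 0.39 (adjusted P = 0.0041 and 0.047).

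Adipocyte genes, taken as a sum, moved with these values. The summed level of 6 of them (Adipoq, Plin1, Cidec, Lep, Cfd, and Retn) was 792, 506, 2494, and 1083 CPM in the control mice and 96.6, 50.5, 262, and 582 CPM in the HFD mice. In the HFD+RSV mice it was 100.4 to 755 CPM, and in the HFD+MET mice it was 1131, 27.5, 2497, and 123 CPM. None of the 6 was called in any comparison. Lep went against the sum, at a log2FC of 1.39 in HFD against control, and the others were at -2.88 to -1.84. Other cell types had lower median sums in the HFD than in the control mice as well. The medians were 56.5 against 123.6 CPM for Schwann cell genes and 367.6 against 578.2 CPM for erythroid genes. For endothelial genes they were 336.7 against 419.9 CPM, and for macrophage genes 99.5 against 111.7 CPM. None of these genes was called. The 2 mice of highest adipocyte sums, control mouse 3 and HFD+MET mouse 3, were also the highest of their groups for the lncRNAs of Ppara, Dgat2, Pparg, and Pde3b, at 7.03 and 4.09 FPKM for NONMMUT024511.2. Their skeletal muscle sums were the lowest of all mice, at 165100 and 175900 CPM. In bulk tissue, fewer cells of a type and less RNA per cell cannot be told apart. The part of adipocytes or other cells in these results was not tested.

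**Figure D4:**
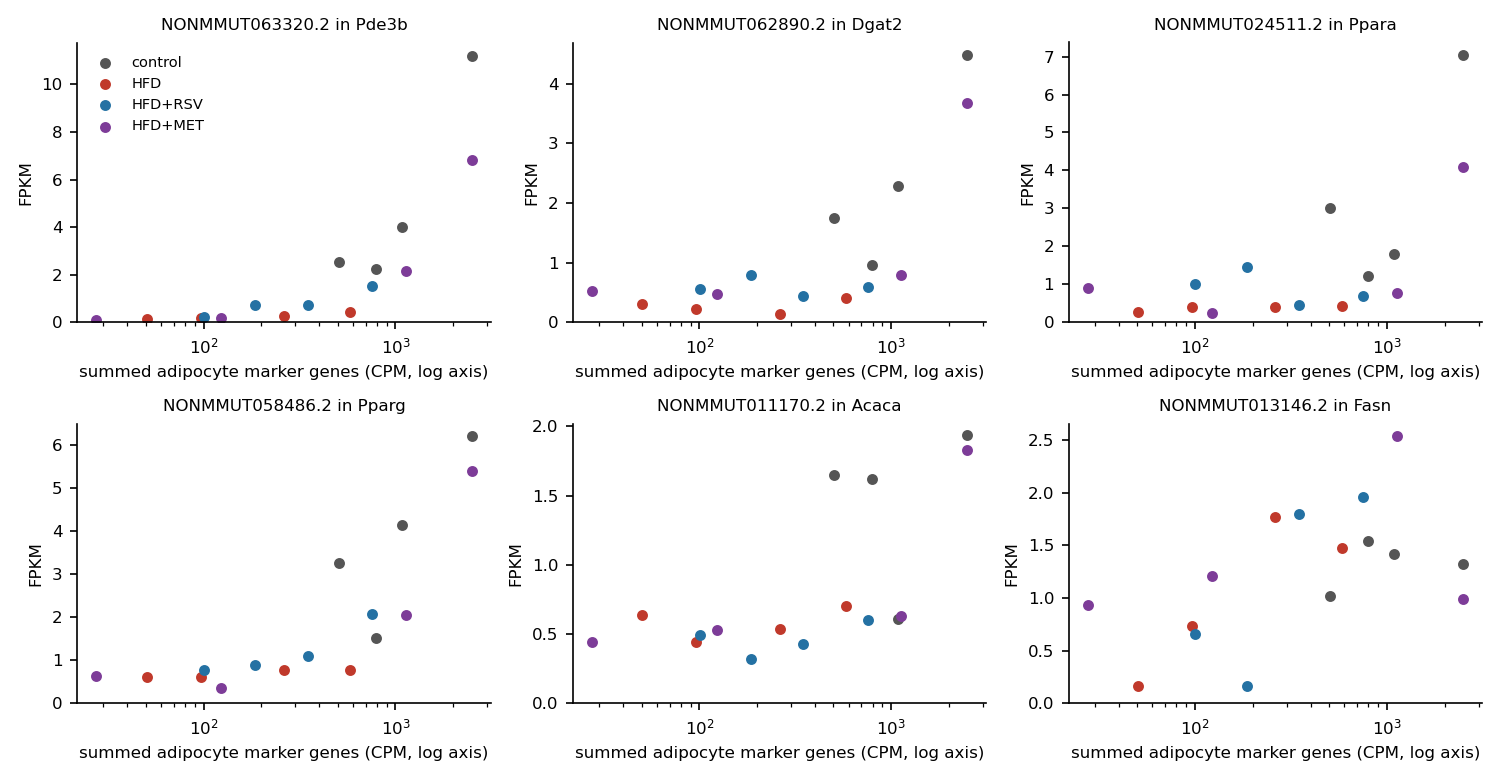
FPKM of 6 lncRNAs in lipid hosts (vertical axis) against the summed level of 6 adipocyte genes in the same mouse (horizontal log axis, CPM). Each point is a mouse, colored by group, and control mouse 3 and HFD+MET mouse 3, at 2494 and 2497 on the horizontal axis, are the highest points for Pde3b, Dgat2, Ppara, Pparg, and Acaca but not for Fasn.

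The second comparison asked what resveratrol changed in mice on the high-fat diet. This comparison and the first share the HFD mice, so an lncRNA that is high in these mice can pass in both. In HFD+RSV against HFD, 3 lncRNAs were called of 8874 tested, all lower, which were also the only calls in the whole table (0.0182%). At an unadjusted P below 0.05 with the limit on log2FC kept, 133 passed, against 1.87% of the table, and DESeq2 called 27. No host gene was called (0% of all genes), and 20 passed at an unadjusted P with that limit, against 1.07% of all genes. NONMMUT018494.2 in Mef2c had FPKM of 0.129, 0.127, 0.127, and 0.122 in the HFD+RSV mice, all below the 5.17 to 19.7 of the HFD mice, a log2FC of -6.72 ± 0.45 (adjusted P = 0.00011). In the fit to all 16 mice, its adjusted P was 0.239. In the HFD+MET group, 2 mice had 16.8 and 11.7 FPKM and the other 2 had 0.119 and 0.099. NONMMUT019242.2 in Pde4d had 2.38, 2.02, 4.45, and 2.89 FPKM, all between the control and the HFD mice, a log2FC of -1.96 ± 0.24 (adjusted P = 0.015). NONMMUT045865.2 lies in the 3′ UTR of Tyw3, which encodes an enzyme of tRNA wybutosine synthesis (chr3:154576526-154579157). It had 0.0587, 0.0435, 0.159, and 0.0692 FPKM in the HFD+RSV mice and 0.752, 0.621, 0.654, and 0.434 FPKM in the HFD mice. Its groups did not overlap, with a log2FC of -2.98 ± 0.34 (adjusted P = 0.013). The calls in Pde4d and Tyw3 were lost without HFD mouse 3 or without HFD+RSV mouse 1.

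By the test of the difference, 7 lncRNAs were below their host in HFD+RSV against HFD and none was above it, where 0.0677% of all rows with a host passed (623 of the lncRNAs and 7.01% of the rows at an unadjusted P). The Mef2c, Pde4d, and Tyw3 lncRNAs were among them. Tyw3 itself had counts of 37, 44, 33, and 39 in the HFD mice and of 85, 85, 77, and 74 in the HFD+RSV mice, a log2FC of 1.09 ± 0.15 (adjusted P = 0.112), opposite to its lncRNA, and the difference was -4.12 ± 0.39 (adjusted P = 0.001). NONMMUT006717.2 in Igf1 had 0.110, 0.108, 0.292, and 0.124 FPKM in the HFD+RSV mice, below all HFD mice, and differed from Igf1 by -2.65 ± 0.41 (adjusted P = 0.048). NONMMUT153460.1 in Hemk1 had at most 3 counts in the HFD+RSV mice, and relative to library size its summed count was 22.5 times as high in the HFD mice (interval 10.7 to 57.0). The Igf1 and Hemk1 differences were each lost in 15 alternatives. The others were NONMMUT047957.2 in Adamtsl1, at -2.25 ± 0.35 against -0.26 for Adamtsl1 and -2.08 ± 0.52 for Sh3gl2, and NONMMUT003684.2 in Uck2, which encodes a uridine-cytidine kinase. Against Sh3gl2, the difference of NONMMUT047957.2 was -0.09. NONMMUT003684.2 had 0.333, 0.247, 0.267, and 0.334 FPKM in the HFD+RSV mice and 0.449, 0.740, 0.677, and 0.902 FPKM in the HFD mice, and differed from Uck2 by -1.41 ± 0.21 (adjusted P = 0.048).

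NONMMUT044897.2 in Cdc14a had 1.52, 1.93, 1.32, and 0.973 FPKM in the HFD+RSV mice, all below the 2.29 to 4.91 of the HFD mice. Its log2FC of -1.55 ± 0.23 did not pass (adjusted P = 0.062), nor did its difference from Cdc14a of -0.96 ± 0.20 (adjusted P = 0.228).

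The lncRNAs before the internal start of Rora had a median log2FC of -0.16 in HFD+RSV against HFD, and those of Jph1 had -0.43 and those of Adamtsl1 had -1.08. All 9 Jph1 lncRNAs and all 7 Adamtsl1 lncRNAs had a negative log2FC, and none of these was called. The Jph1 sum was 203 to 301 CPM in the HFD+RSV mice and overlapped that of the HFD mice. The Adamtsl1 sum was 20.0, 17.1, 26.5, and 20.9 CPM, so that every HFD+RSV mouse was above every control mouse and below every HFD mouse. Of the host lists, calcium release and transcription regulators each had 1 lower lncRNA, those in Pde4d and Mef2c, and the other 7 lists had none.

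The third comparison was between metformin and the high-fat diet alone. No lncRNA was called among 8944 tested (0% of the table), and DESeq2 called 17. With the limit on log2FC kept, 153 passed at an unadjusted P, against 2.38% of the table. None differed from its host (0% of the rows), with 556 at an unadjusted P, against 6.51% of the rows. At an unadjusted P with the limit on log2FC kept, 40 host genes passed, against 1.76% of all genes. Of the host genes 1 was called, where 0.013% of all genes were. It was Nr4a3, which encodes an orphan nuclear receptor, at a log2FC of -3.02 ± 0.39 (adjusted P = 0.013). In a fit without the HFD+RSV mice, 2 lncRNAs were called and 4 differed from their host. These were NONMMUT065156.2 in Gsr, with a summed count 128 times as high relative to library size (interval 67.2 to 281, adjusted P = 1.5e-10), and NONMMUT069928.2 in Tcf12, at a log2FC of -1.81 (adjusted P = 0.0085). Both differed from the host, as did the lncRNAs NONMMUT004274.2 in Esrrg, by -2.63, and NONMMUT111148.1 in Gm5276, by 4.48 (adjusted P = 0.0082 and 0.0026). The counts of the Gsr lncRNA were 233 or more in every HFD+MET mouse against 3 or fewer in the HFD mice, and the fit to all 16 mice gave an adjusted P of 0.119. The Tcf12 lncRNA had 0.600, 0.601, 1.19, and 0.838 FPKM in the HFD+MET mice, all below the 2.16 to 2.82 of the HFD mice. In the HFD+RSV mice it had 3.22, 0.914, 2.87, and 2.52 FPKM, with a single mouse at the level of the control mice. For all 9 host lists, no lncRNA was called with metformin, and the median log2FC of the 14 in lipid hosts was 0.66.

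As a share of all counts, the 9015 lncRNAs together had their lowest mean in the HFD mice. The share was 2.68%, 3.07%, 3.35%, and 2.97% in the control mice and 2.66%, 2.53%, 2.67%, and 2.53% in the HFD mice. The means were 3.02% ± 0.28 and 2.60% ± 0.08 (SD, n = 4), and no HFD mouse reached the lowest control mouse. In the HFD+RSV mice the share was 2.81%, 2.92%, 2.76%, and 2.65%, and mouse 4 lay within the range of the HFD mice. No test is given, since the lncRNAs were chosen by their counts. Intron lncRNAs had 10.1 ± 0.59 counts per 100 counts of their hosts in the control mice and 8.79 ± 0.35 in the HFD mice (the groups did not overlap), 9.40 ± 0.42 in the HFD+RSV mice, and 9.80 ± 1.03 in the HFD+MET mice. HFD+MET mouse 3 had a share of 3.69%, and the other HFD+MET mice had 2.73% to 2.78%. Without it, the HFD+MET share was 2.76% ± 0.03 (SD, n = 3). The mice of highest share in the control and HFD+MET groups were the 2 of highest adipocyte sums, whose part in the shares was not tested.

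**Figure D5:**
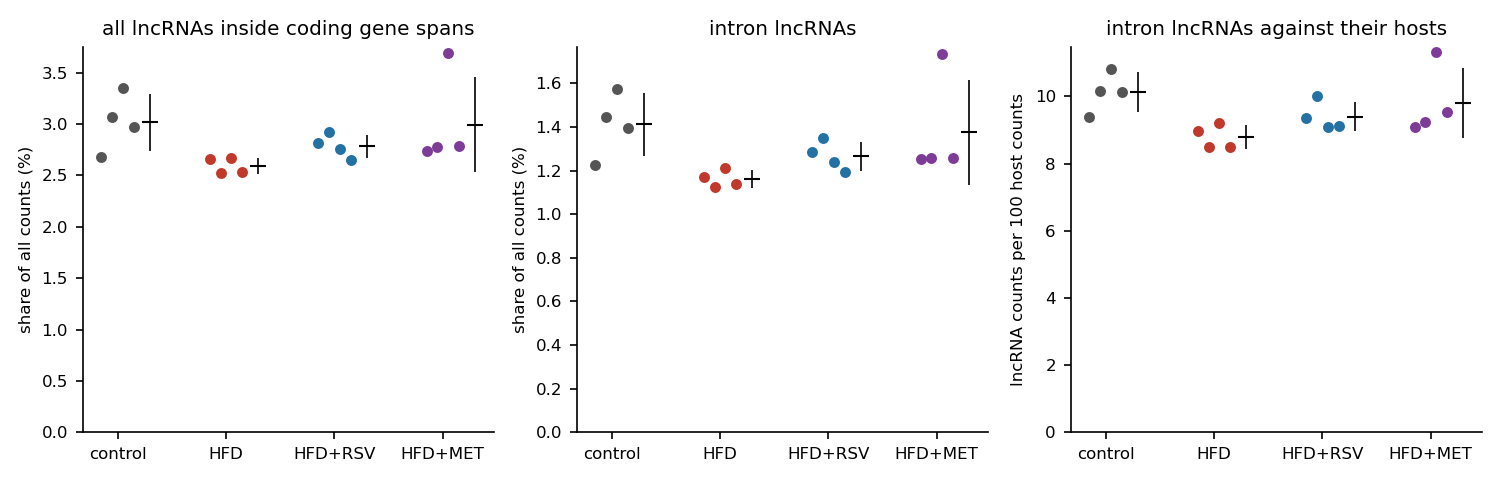
Share of all counts taken by the 9015 lncRNAs and by the intron lncRNAs (%), and counts of intron lncRNAs per 100 counts of their host genes, in each mouse (points) with the mean and SD of each group of 4 mice (bars). All axes start at 0, all HFD mice lie below all control mice in the 3 panels, and HFD+MET mouse 3 is the highest of all 16.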

How the data were processed

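Ribosomal RNA was depleted and libraries were made from the muscle of 16 mice, 1 library per mouse. Per the labels, the authors used fastp, HISAT2 and GRCm38, and, per the study's methods, StringTie, with TMM before FPKM. The authors deposited estimated counts and FPKM per transcript in an mRNA and an lncRNA table, and the estimated counts were whole numbers. Whether strand was kept is not given in the sources used here. lncRNAs were placed on GENCODE M21, whose intervals equalled 97.4% of mRNA and 98.7% of Ensembl lncRNA intervals.

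mRNA counts were summed per gene name. edgeR 4.0.16 (R 4.3.3) tested each whole table by quasi-likelihood after filterByExpr (minimum count 10, total 15) and TMM, over 12 mice without metformin and over 16 mice for HFD+MET. A called lncRNA had a Benjamini-Hochberg adjusted P below 0.05 and an absolute log2FC above 1. Counts of lncRNAs and of host genes at an unadjusted P below 0.05 kept this limit on log2FC. The difference from the host was an interaction term with the mouse as a block, and no limit on its size was set. SE is the absolute log2FC over the square root of F, and errors of group means are SD. Overlap was judged on log2 CPM for calls. Simulated counts had the same spread for all transcripts of a table, with lncRNA and host drawn independently and no outlying mice or shared reads. At a log2FC of 2 in such counts, the HFD against control fit recovered 86.5% of 200 changed lncRNAs among 17321 tested. It also called 11 unchanged ones. The interaction recovered 67.5% of 200 among 10790 and called 5 unchanged ones. Since the real data differ in these respects, the shares do not give the power of the tests on them.

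The lncRNAs and the host lists were chosen with earlier results of these data known. Named lncRNAs were those named by the study, those of largest called change or difference from the host per comparison and direction without overlap, those called with or against their host, the most abundant per host list, those of the hosts with most lncRNAs, and those at the count limits. Others are named as chosen after their values were seen. Nothing says that mice were independent beyond being separate samples, so P-values measure the spread between these mice. Rank correlations of libraries were 0.789 to 0.819 within and 0.781 to 0.818 between groups, and no libraries were identical. Counting intervals (95%) cover counting error only. DESeq2 1.42.0 and limma 3.58.1 served as alternatives, with other scalings, filters, hosts, and samples.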

Additional observations from a re-analysis of the deposited data

Results flagged for a closer look

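In 11 of 148 groups of 4 mice, a single mouse stood apart from the other 3 by more than Dixon's limit, which chance gives in about 1 in 20 groups. NONMMUT065156.2 in Gsr had 2 counts in HFD+RSV mouse 4, against 268, 276, and 298 in the other HFD+RSV mice. NONMMUT071570.2 in CAAA01194877.1 had 27 counts in control mouse 1, against 129, 157, and 217 in the other control mice. In HFD+RSV mouse 4 it had 28 counts, against 117, 128, and 149. NONMMUT053789.2 in Ulk1, which encodes a kinase that starts autophagy, had 1065 counts in HFD+MET mouse 4 and 3 in each of the other HFD+MET mice. Over the other groups it had 510 to 1127 counts in control mice 2 and 4 and HFD mice 1 and 3, and 3 in each of the rest.

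NONMMUT019236.2, the first of the Pde4d lncRNAs, had 169 counts in HFD+MET mouse 3, against 1077, 1646, and 1901. The share of counts in the lncRNAs inside coding genes was 3.69% in the same mouse. NONMMUT026547.2 in Gsk3b had 134 counts in HFD mouse 4, against 727, 778, and 925. NONMMUT062889.2 in Dgat2 had 20 counts in HFD mouse 1, against 253, 261, and 308. NONMMUT051325.2 in Cd36, which encodes a fatty acid transporter, had 311 counts in control mouse 1, against 712, 939, and 1153. NONMMUT073415.2 in Phka1 had 692 counts in HFD mouse 1, against 426, 503, and 505. NONMMUT027624.2 in Sod1 had 231 counts in HFD+RSV mouse 3, against 160, 163, and 174.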

How the results depend on the processing

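Signs were checked only for the named lncRNAs, each in the comparison it was named for, leaving out those chosen after their values were seen. Among these, no called value changed sign under any alternative run. Below, counts of lncRNAs called and of host genes at an unadjusted P keep the limit on log2FC, and differences from the host have none. For HFD against control, 125 lncRNAs were called, and the count was 385 at an unadjusted P, 267 without a limit on the fold, 219 by DESeq2, 63 at a mean count of 50 or more, and 80 with all 16 mice. Leaving out 1 mouse gave 47 to 163, with 47 without control mouse 2, 64 without control mouse 3, and 75, 66, and 57 without HFD mouse 1, 2, or 3. With 1 TMM factor from both tables, 58 were higher and 80 were lower, against 65 and 60. The 61 that differed from the host became 1425 at an unadjusted P, 100 with 1 TMM factor from both tables, 23 by limma with a pseudocount of 0.5 CPM, 16 without a filter on low counts, 44 with the containing gene of lowest count as the host, and 12 to 69 without 1 mouse. It was 19, 13, and 27 without control mouse 2, 3, or 4, 21, 12, 13, and 40 without HFD mouse 1, 2, 3, or 4, and 40 without HFD+RSV mouse 4.

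For HFD+RSV against HFD, 3 were called, and the count was 133 at an unadjusted P, 27 by DESeq2, 6 without a filter, and 1 to 10 without 1 mouse (1 without HFD mouse 3 and 10 without HFD+RSV mouse 3). The 7 that differed from the host became 623 at an unadjusted P, 3 with a single host name, 3 without a filter, 3 with all 16 mice, 3 with the host of lowest count, and 2 to 12 without 1 mouse (12 without HFD mouse 1, and 2 to 4 without any of 9 other mice). For HFD+MET against HFD, 0 were called, and the count was 153 at an unadjusted P, 17 by DESeq2, 2 without the HFD+RSV mice, and 0 to 1 without 1 mouse. The 0 that differed from the host became 556 at an unadjusted P, 4 without the HFD+RSV mice, and 0 to 2 without 1 mouse. The host of lowest count and host genes at an unadjusted P were chosen after seeing the data. Host genes at an unadjusted P were 134, 20, and 40 in the 3 comparisons, against 83, 0, and 1. The cause of these changes was not tested.

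Over the named lncRNAs, 38 of 281 values under other settings and 109 of 588 without 1 mouse lost their call, and 6 and 7 gained one. The 281 and 588 include values without a call in the main fit, which had none to lose. The share lost among calls is therefore higher than these counts give. The calls lost most often were the differences from the host of the Fasn lncRNA (16 alternatives), of the Gsr lncRNA in HFD against control (15), and of the Igf1 and Hemk1 lncRNAs in HFD+RSV against HFD (15 each). No paired analysis was possible because nothing says what the numbers in the mouse names mark, although some of them recur in several groups, and mice were numbered in accession order here. Where every mouse of a group had 3 counts or fewer, depth limits the fold, and a ratio with its counting interval stands in for it.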
